A study of Mus musculus with 9 samples.

Results

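The enzymes of haem synthesis were followed as 7 genes, Alas1, Alad, Uros, Urod, Cpox, Ppox and Fech, of 22180 named genes on the array. Members were taken by exact gene symbol, and for a gene with several rows the row would be chosen by the highest mean over the 9 arrays. Each of the 7 had 1 row with its symbol alone, so no measured value decided between rows. The tissue was embryonic cortex of CD1 mice, wild-type in every group, dissected between embryonic days 12 and 13, with no treatment. Total RNA from the cortex (input), RNA precipitated with normal rabbit IgG and RNA precipitated with a rabbit antibody to Pumilio2 (Pum2) were each measured on 3 arrays, labelled as biological replicates. The sources used here do not give the number of embryos per sample, and a precipitate holds RNA found with the protein in a lysate, which is not proof of direct binding. Values are log2 signals of a whole-transcript array, so a difference of 1 is a doubling.

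Haem, the iron-holding ring of haemoglobin, the respiratory cytochromes and many other enzymes, is made in a pathway that starts in the mitochondrion, passes through the cytosol and ends in the mitochondrion again. Alas1, the form of 5-aminolevulinate synthase that cells outside the red lineage use, makes the first committed precursor and sets the rate. Alad, Uros and Urod, in the cytosol, join precursors into a ring and trim it, and Cpox, Ppox and Fech, in the mitochondrion, oxidise the ring and insert iron. Pum2 is an RNA-binding protein of the Pumilio family that holds down the translation and stability of mRNAs it binds, mostly through short elements in their 3′ ends, whose sequences were not used here.

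Promoter windows of 6 of the 7 genes were found in RefSeq (GRCm38.p6, 250 bases before to 50 after each start). That of Fech was missing, so Fech was not searched. Each motif searched for occurred in the window of 1 of these 6 genes. The letters CGCATGCG, the core of the element of the respiratory-gene activator NRF-1, occurred on either strand in the window of Alas1 alone among the 6, and in 2.07% of 27025 genes with a window. AGATAAG, the element of the GATA factors that drive red-cell genes, occurred in that of Cpox alone, on the opposite strand, and in 3.5% of genes. The motifs do not overlap each other, a match is a description of letters and not of binding, and the arrays measured RNA, not these regions. Capitals mark the motif in 30 bases of the gene's own strand, at chr9:106247906-106247935 (minus strand, motif at bases 31 to 38 counted from the first start of Alas1) and chr16:58670200-58670229 (plus strand, bases 4 to 10 from the start of Cpox).
Alas1: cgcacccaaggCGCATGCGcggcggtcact
Cpox: cagggtgcagtCTTATCTgctctttccggg

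Against IgG, the background of the method, 4 of the 7 transcripts were higher with Pum2 and 0 were lower (limma, adjusted p under 0.05 over all named genes). At an unadjusted p under 0.05 the counts were also 4 and 0. Of all named genes 19.4% were called higher and 11.4% lower in this comparison. All 7 members were among the 11090 genes at or above the median level. Fitted alone, those genes gave 4344 higher and 2330 lower calls (median difference 0.12), and the members again 4 and 0. The 4 were Cpox, Urod, Alas1 and Alad. Uros, Ppox and Fech did not pass. The median difference of the 7 was 0.55, beside 0.04 over all named genes, and the members ran from -0.06 to 1.33. By place in the cell, 2 of 3 cytosolic and 2 of 4 mitochondrial enzymes were called, so the calls lay in both. The genome-wide split of 4296 higher and 2519 lower calls moved with the scaling of the arrays, to 8093 and 2143 with quantile normalization run again and to 3092 and 3495 with arrays centred on the brighter genes. The same 4 members kept their calls under both.

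**Figure D1:**
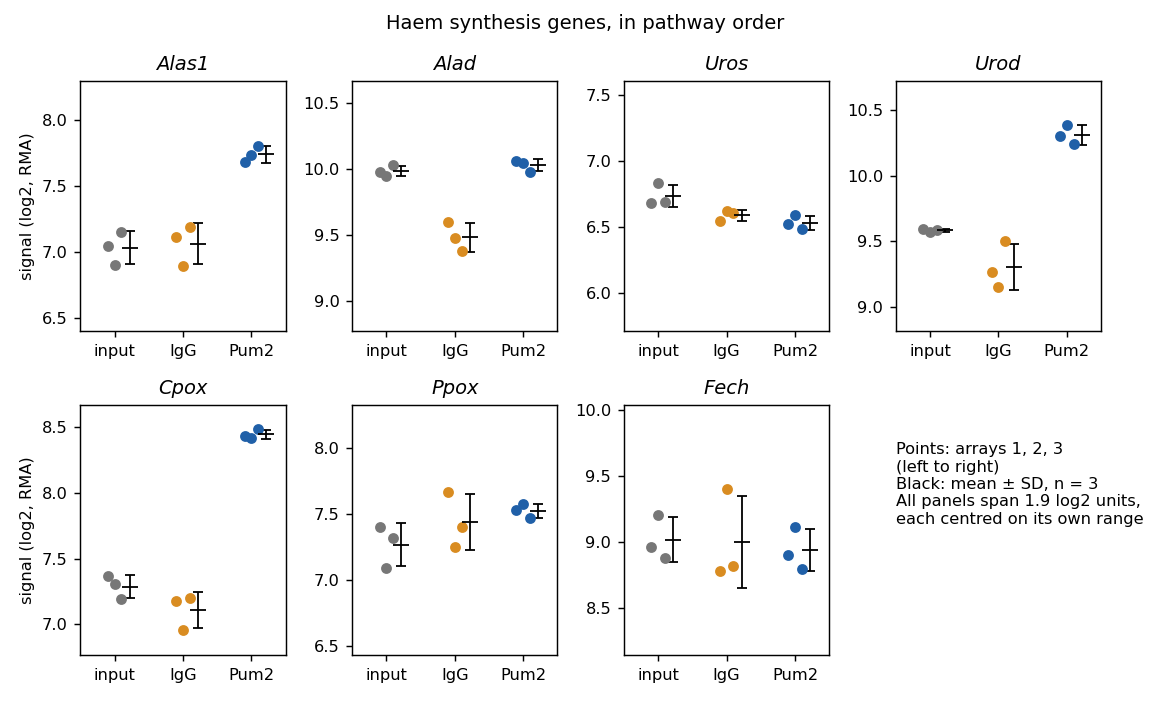
Signal (log2) of the 7 genes on each of the 9 arrays, in pathway order, with the mean and SD of each group (n = 3); every panel spans the same range of log2 units. Pum2 arrays lie above all input and IgG arrays for Alas1, Urod and Cpox, and Alad is lower in IgG than in both other groups.

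Alas1, the entry step, read 7.05, 6.90 and 7.15 in input, 7.11, 6.89 and 7.19 in IgG, and 7.68, 7.74 and 7.81 with Pum2. The Pum2 arrays lay above all others, while input and IgG overlapped. The difference from IgG was 0.68 ± 0.10 (log2 difference ± SE, n = 3 arrays per group, 1.60-fold, adjusted p = 5.17e-04), and from input 0.71 ± 0.10 (1.63-fold, adjusted p = 2.79e-04). IgG and input differed by 0.03 ± 0.10, which did not pass (adjusted p = 0.872).

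Alad condenses the product of Alas1 into a pyrrole, and its readings were 9.98, 9.95 and 10.03 in input, 9.60, 9.47 and 9.38 in IgG, and 10.06, 10.05 and 9.98 with Pum2. Here the IgG arrays were the low ones, below both other groups, and Pum2 overlapped input. The gene was higher with Pum2 than with IgG by 0.55 ± 0.08 (1.46-fold, adjusted p = 4.37e-04). It differed from input by 0.04 ± 0.08, which did not pass (adjusted p = 0.731, 95% interval -0.13 to 0.21). Alad was also the 1 member called in IgG over input, where it was lower by 0.50 on the log2 scale (difference -0.50 ± 0.08, adjusted p = 0.00162).

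Uros, which forms the first ring of the pathway, read 6.68, 6.83 and 6.69 in input, 6.54, 6.62 and 6.60 in IgG, and 6.52, 6.59 and 6.48 with Pum2. The 2 precipitates overlapped, and all 6 of their arrays lay below the input arrays by a small margin. The difference from IgG was -0.06 ± 0.07 (adjusted p = 0.614, 95% interval -0.22 to 0.11). From input it was -0.20 ± 0.07, just outside the threshold (adjusted p = 0.0571). It passed that threshold with fewer genes tested, those at or above the median level (adjusted p = 0.024), or with arrays centred on the brighter genes (-0.27, adjusted p = 0.0174). With quantile normalization run again the difference from input was -0.0056 (adjusted p = 0.958), so it depended on the scaling.

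Urod, which removes carboxyl groups from the ring, read 9.59, 9.57 and 9.59 in input, 9.26, 9.15 and 9.50 in IgG, and 10.30, 10.38 and 10.24 with Pum2. Pum2 was highest and IgG lowest, with no overlap between any 2 groups. The transcript was higher with Pum2 than with IgG by 1.00 ± 0.09 (2.00-fold, adjusted p = 3.92e-05) and than in input by 0.72 ± 0.09 (1.65-fold, adjusted p = 1.81e-04). IgG stood below input by a difference of -0.28 ± 0.09, which did not pass (adjusted p = 0.0677). That difference passed without IgG replicate 3, the highest of the IgG arrays (-0.38, adjusted p = 0.0171).

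Cpox, which carries out the first oxidation on the mitochondrial side, differed most of the 7. It read 7.36, 7.30 and 7.19 in input, 7.18, 6.95 and 7.20 in IgG, and 8.43, 8.42 and 8.48 with Pum2. The 3 Pum2 arrays were close together (SD 0.03) and more than 1 log2 unit above every other array. The difference was 1.33 ± 0.09 from IgG (2.52-fold, adjusted p = 5.71e-06) and 1.16 ± 0.09 from input (2.23-fold, adjusted p = 5.54e-06). Ranked by difference among all named genes, Cpox stood at percentile 99.95 against IgG and 99.67 against input. IgG and input differed by -0.18 ± 0.09, which did not pass (adjusted p = 0.206).

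The enzymes of the last 2 steps were not called in any comparison. Ppox, which makes protoporphyrin, read 7.40, 7.09 and 7.32 in input, 7.67, 7.25 and 7.40 in IgG, and 7.53, 7.57 and 7.47 with Pum2. Pum2 lay within the range of IgG (0.08 ± 0.12, adjusted p = 0.657, 95% interval -0.18 to 0.34) and above the input arrays (0.25 ± 0.12, adjusted p = 0.126). The difference from input passed with quantile normalization run again (0.39, adjusted p = 0.0213), a scaling that raised the median of all genes from 0.07 to 0.19. Fech, which inserts the iron, read 8.96, 9.21 and 8.88 in input, 8.78, 9.41 and 8.82 in IgG, and 8.90, 9.11 and 8.80 with Pum2. All 3 groups overlapped. Fech differed from IgG by -0.06 ± 0.17 (adjusted p = 0.822), with an interval of -0.43 to 0.31, the widest of the 7, which holds neither the difference of Urod nor that of Cpox.

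**Figure D2:**
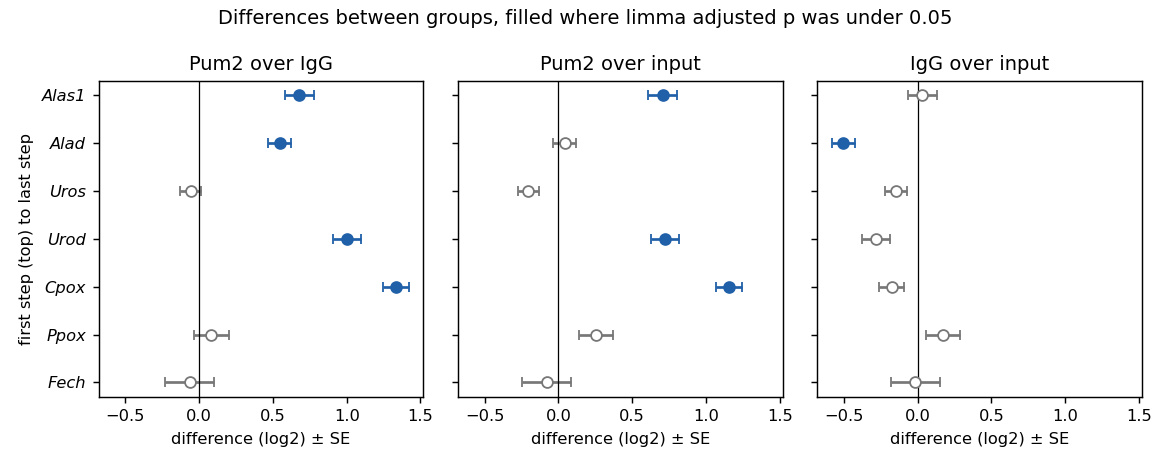
Log2 difference and SE of each gene in the 3 comparisons, first step at the top, filled where the adjusted p was under 0.05. Cpox has the largest difference in both Pum2 panels (1.33 and 1.16), and Alad is filled in Pum2 over IgG (0.55) and in IgG over input (-0.50) but not in Pum2 over input (0.04).

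Against input, 3 of the 7 were higher with Pum2, namely Alas1, Urod and Cpox, and 0 were lower, where 21.6% of all named genes were called higher and 13.1% lower. At an unadjusted p under 0.05 the counts were 3 and 1, the latter being Uros. The median of the 7 was 0.25 beside 0.07 over all genes. The 11090 genes at or above the median level, fitted alone, gave 4555 higher and 2699 lower calls (median 0.12). In that fit the counts of the 7 were 3 and 1. In IgG over input 0 of 7 were higher and 1 was lower, at backgrounds of 8.25% and 9.72%. The unadjusted counts were 0 and 2, Alad and Urod. The genes at or above the median level, fitted alone, gave 2086 higher and 2532 lower calls of 11090, and the 7 gave 0 and 2. The 3 comparisons share arrays in pairs, so their values are not independent of each other.

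Red cells make haem in bulk and circulate through the embryonic cortex, so their markers were read on the same arrays. The groups are total RNA and precipitates from the same kind of tissue, so a marker may differ through how much of its mRNA precipitates. That, the number of cells of a type and the RNA per cell cannot be told apart here. Of all named genes 19.4% were called higher and 11.4% lower over IgG, and 21.6% and 13.1% over input. Of 21 listed erythroid markers 13 were measured, and in Pum2 over IgG 0 were called in either direction (unadjusted 0 higher and 1 lower), with a median of -0.15. Their mean level was 6.46 to 6.77 in input, 6.38 to 7.01 in IgG and 6.36 to 6.71 with Pum2, so the groups overlapped. Against input 3 of the 13 were lower, the embryonic globins Hba-x (-1.17, adjusted p = 0.0140), Hbb-bh1 (-1.17, adjusted p = 0.00592) and Hbb-y (-0.36, adjusted p = 0.0496), and 0 were higher. No erythroid marker was called higher over IgG under either other scaling, and 1 was called lower under each. Over input, 1 was higher and 3 lower with quantile normalization run again (median 0.18, beside 0.06 in the main fit), and 0 and 3 with arrays centred on the brighter genes. Of 13 markers of cortical precursors and neurons, the labelled tissue, 12 were measured, with a mean level of 9.86 to 10.32 where the median over genes was 6.08. They were called higher in 6 cases and lower in 1 against IgG (median 0.29), and in 10 and 1 against input (median 0.37). With arrays centred on the brighter genes the counts against input were 7 and 1. Endothelial markers were called higher in 2 of 6 cases against IgG (median 0.50, mean level 7.76 to 8.16 in IgG and 8.41 to 8.49 with Pum2), in 6 with quantile normalization run again, and in 5 of 6 against input. Microglial markers were called higher than in IgG in 2 of 6 cases (median 0.11, mean level 5.73 to 6.01 and 6.03 to 6.07), in 3 with quantile normalization run again and in 1 with arrays centred on the brighter genes. The part of all these cell types in the rises of the synthesis genes was not tested.

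Fech varied between arrays of a group in the way most, but not all, of the erythroid markers did. Its array numbered 2 was the highest of its group each time, by 0.19, 0.40 and 0.18 above the group mean in input, IgG and Pum2. The mean of the 13 erythroid markers stood 0.18, 0.39 and 0.21 above its group mean on the same arrays. Of the 13 markers 8 were highest on array 2 in all 3 groups, among them Hba-x, Hbb-bh1 and Slc4a1, the anion exchanger of the red-cell membrane, against 5.14% of all named genes. Of the haem synthesis genes, Fech and Uros had that pattern. The marker Tspo2 stood below its group mean on array 2 in input, IgG and Pum2 (-0.090, -0.024 and -0.139). Array 3 was the highest in all 3 groups for 1 marker and 1 haem synthesis gene, and for 4.62% of all named genes. The array 2 pattern was noticed in the data, the markers named here were picked after their values were seen, and the cause was not tested. With the arrays numbered 2 left out of all groups, a setting chosen after it was seen, 4 of 7 genes were still called higher than in IgG and 3 higher than in input, and Fech differed from IgG by 0.05 ± 0.09.

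**Figure D3:**
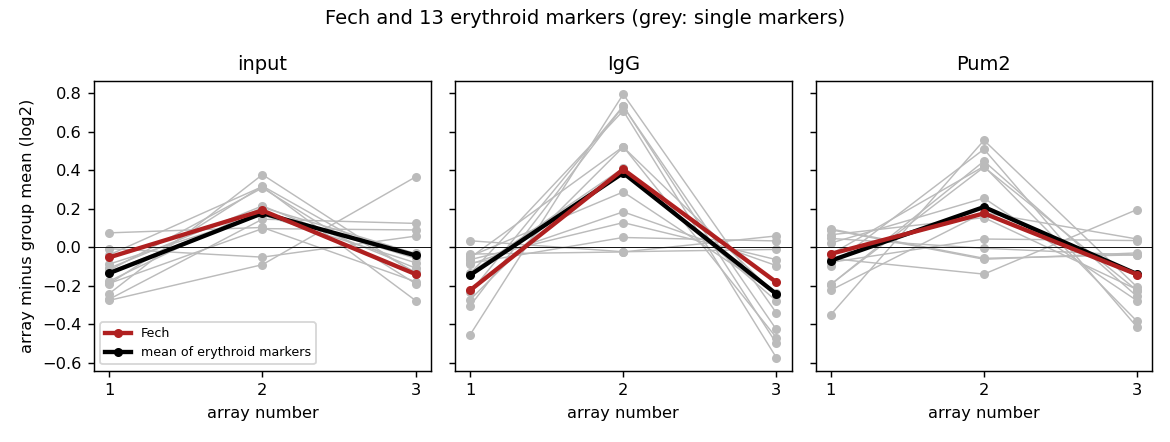
Each array's log2 signal minus its group mean, for Fech (red), the mean of 13 erythroid markers (black) and the single markers (grey), by array number within input, IgG and Pum2. Both bold lines peak at array 2 in each group, where Fech stands 0.40 above its mean in IgG and the marker mean 0.39.

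Genes that supply, move, sense or break down haem, taken from lists drawn up for the pathway, went both ways in Pum2 over IgG. The counts below stand beside 19.4% of all named genes called higher in that comparison and 11.4% lower. With quantile normalization run again those calls were 8093 and 2143 of 22180 genes, and with centring on the brighter genes 3092 and 3495. Among 9 measured partners of the enzymes 3 were higher and 2 lower (median 0.16). Pgrmc1, a haem-binding membrane protein that partners Fech, rose by 0.84 ± 0.10 (adjusted p = 1.34e-04). Clpx, the chaperone that activates and turns over Alas enzymes, rose by 0.43 ± 0.10 (adjusted p = 0.00898). The cluster assembly genes Iscu and Isca1 were lower, by -0.31 ± 0.07 and -0.49 ± 0.11 (adjusted p = 0.00929 and 0.00848), and Iscu did not pass with quantile normalization run again (-0.19). The call of Glrx5, a carrier of iron-sulphur clusters named after its values were seen (0.30, adjusted p = 0.0464), was lost under both other scalings (adjusted p = 0.0696 and 0.179), which left 2 partners higher under each. Tmem14c, a porphyrin transporter of the inner membrane, differed by 0.39 ± 0.26 and did not pass (adjusted p = 0.308).

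Of 16 transporters 4 were higher and 3 lower (median 0.06), counts that were 7 and 3 with quantile normalization run again and 3 and 4 with arrays centred on the brighter genes. The largest change was in Slc25a39, a mitochondrial carrier of glutathione that haem synthesis requires. It read 9.07, 9.22 and 8.98 in input, 8.70, 8.74 and 8.60 in IgG, and 7.75, 7.69 and 7.59 with Pum2. Each group lay wholly below the one before. Against IgG it fell, with a difference of -1.01 ± 0.09 (adjusted p = 2.41e-05), and against input the difference was -1.41 (adjusted p = 1.62e-06). Slc25a28, which imports iron into mitochondria of most cells, was also lower (-0.77 ± 0.10, adjusted p = 2.45e-04). Abcb6, a reported porphyrin transporter, and Abcb8, a transporter of the mitochondrial inner membrane, were higher (0.46 ± 0.09 and 0.57 ± 0.09, adjusted p = 0.00360 and 8.52e-04). Slc25a38, which brings glycine to Alas, the mitochondrial transporter Abcb10 and the reported haem exporter Flvcr1 did not pass (0.06, 0.07 and -0.22, adjusted p = 0.603, 0.669 and 0.310).

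Of 13 genes listed for haem breakdown, haem sensing and the making of haems A and c, 6 were higher and 0 lower (median 0.29, unadjusted 8 and 0). Among all named genes 19.4% were higher and 11.4% lower. The list also held the regulators Nrf1 and Ppargc1a, named after their values were seen. They did not pass (0.03 and -0.09, adjusted p = 0.83 and 0.63). The haem-binding nuclear receptors Nr1d2 and Nr1d1 rose by 0.93 ± 0.08 and 0.78 ± 0.10 (adjusted p = 3.29e-05 and 2.94e-04). Eif2ak1, the kinase that slows translation when haem is short, rose by 0.61 ± 0.09 (adjusted p = 4.96e-04), and Bach1, a repressor that haem releases from DNA, by 0.52 ± 0.07 (adjusted p = 3.45e-04). Eif2ak1 did not pass against input (0.17, adjusted p = 0.1855), and it was lower in IgG than in input (-0.44, adjusted p = 0.00625). The haem oxygenases Hmox1 and Hmox2, which open the ring, did not pass (0.20 and 0.15, adjusted p = 0.116 and 0.346).

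Of 12 genes of cell iron 2 were higher and 2 lower (median 0.11). With quantile normalization run again 6 were higher and 2 lower (median 0.27), and with centring 2 and 3. Slc40a1, the iron exporter ferroportin, rose by 0.86 ± 0.18 (adjusted p = 0.00468) and Aco1, the iron-sensing RNA-binding protein IRP1, by 0.62 ± 0.08 (adjusted p = 2.89e-04). Fth1, the heavy chain of the iron store ferritin, was lower by -0.85 ± 0.09 (adjusted p = 9.46e-05), and Fbxl5, which marks an iron sensor for destruction, by -0.62 ± 0.10 (adjusted p = 9.90e-04). Tfrc, the receptor for iron-loaded transferrin, did not pass (0.22, adjusted p = 0.339).

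Against input, the same lists gave 3 higher and 3 lower of the 9 partners, 2 and 3 of the 16 transporters, 6 and 0 of the 13 breakdown and sensing genes, and 3 and 2 of the 12 iron genes, where quantile normalization run again gave 4 and 3 of the transporters and 6 and 2 of the iron genes. Medians were -0.18, -0.09, 0.18 and 0.11 in that order. Over all named genes 21.6% were called higher than input and 13.1% lower, with a median of 0.07. The 6 higher breakdown and sensing genes were not all the same as the 6 over IgG. They left out Eif2ak1 and included the regulator Ppargc1a (0.59, adjusted p = 0.00284). Ppargc1a was also higher in IgG than in input (0.67, adjusted p = 0.00319). The median of the transporters changed sign with scaling, to -0.04 over IgG with centring on the brighter genes and to 0.05 over input with quantile normalization run again. The breakdown and sensing genes had 0 lower calls under both scalings in both comparisons, with 5 to 8 higher. Of all 22180 genes, quantile normalization run again gave 8093 higher and 2143 lower over IgG, and 7845 and 2399 over input. Centring gave 3092 and 3495 over IgG, and 3762 and 3444 over input.

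**Figure D4:**
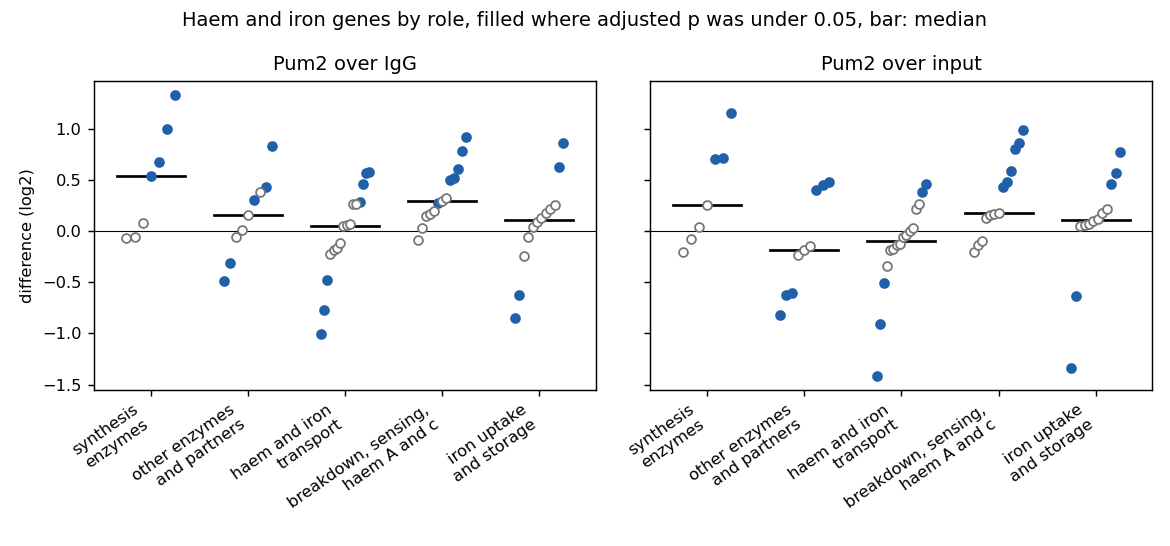
Log2 difference of each gene in the synthesis set and 4 related lists, Pum2 over IgG on the left and Pum2 over input on the right, sorted within a list, filled where the adjusted p was under 0.05, with the list's median as a bar. Filled points of both signs occur among partners, transporters and iron genes, and positive ones alone among the synthesis enzymes and the breakdown and sensing genes. Of all named genes 19.4% were called higher and 11.4% lower over IgG, and 21.6% and 13.1% over input. Not drawn are the settings in which Uros was called lower than input, brighter genes only (-0.20) and arrays centred on the brighter genes (-0.27). With quantile normalization run again, also not drawn, Uros differed from input by -0.0056.

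For each member the most similar profiles were sought among 10386 other genes at or above the median level, by Euclidean distance between the 9 values after each gene was centred on its own mean. The nearest to Cpox were Gnb4 and Caskin2 (distances 0.25 and 0.27), whose Pum2 over IgG differences were 1.28 and 1.25. Nearest to Urod were Wars and Os9 (0.17 and 0.21), and to Alas1 Sox9 and Pkm (0.14 and 0.17). For Alad, low in IgG, they were Sdhd and Snhg6 (0.14 and 0.17), both also low there, with IgG over input at -0.51 and -0.49. The nearest to Uros were Tfdp2 and Tmem121 (0.12 and 0.13), to Ppox Sesn1 and Henmt1 (0.21 and 0.22), and to Fech Slc25a37 and Syne1 (0.22 and 0.29). Slc25a37, the iron importer of red-cell mitochondria, had array 2 as the highest of each group (10.11, 10.32 and 10.01). It was picked for its likeness to Fech on these same arrays, so a shared peak follows largely from the choice. No member was nearest to another member, and likeness over 9 arrays is given as a description.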

How the data were processed

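Samples were grouped by their titles. Per the submitters' processing notes, the deposited log2 values were made by the authors with RMA in Affymetrix Expression Console. The sources used here give no version and no genome build. The table held 41345 rows, of which 23521 had 1 gene symbol. The row with the highest 9-array mean was kept for each gene. Arrays have no read depth, so the number of arrays limits precision. All 22180 genes were fitted with limma 3.58.1 (R 4.3.3), 3 groups, 9 arrays and no block, and p-values were adjusted by Benjamini and Hochberg. They measure spread between arrays, and an exact test of 3 against 3 cannot go below 0.1. The fit was tested on simulated data. The members and lists were chosen with earlier results of these data known, so no test over a list was made. Named genes were all members, up to 4 called genes per related list by moderated t, the 2 most similar profiles per member, and a fixed set of haem genes (Alas2 was not analysed here). Alternatives were a replicate block, 2 groups only, brighter genes only, all rows, another prior, 2 scalings, mean of rows, and each array left out.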

Additional observations from a re-analysis of the deposited data

How the results depend on the processing

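Each member's difference was recomputed under 18 alternatives in 3 comparisons. Of 378 values, 356 kept their direction and their side of the threshold, 0 lost a call, 6 gained one and 16 changed sign, none of them called. For the calls of the report, the range over the alternatives in Pum2 over IgG was 1.24 to 1.40 for Cpox, 0.89 to 1.10 for Urod, 0.58 to 0.80 for Alas1 and 0.45 to 0.60 for Alad, with adjusted p at most 0.0179. Scaling moved the median of all genes from 0.04 to 0.19 (quantile) or -0.05 (brighter genes) in that comparison. The count called lower against input was 1 (Uros) with brighter genes only or with centring. Uros differed from input by -0.0056 with quantile normalization run again. The count called lower in IgG over input was 2 (with Urod) with brighter genes only or with the other prior, and 1 to 2 over single arrays left out.

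Sign changes over IgG were 0.14 for Uros with quantile normalization, -0.012 for Ppox with centring, and -0.036 for Ppox and 0.050 for Fech without the arrays numbered 2. With single arrays left out, Ppox ranged from -0.011 to 0.20 and Fech from -0.18 to 0.14. Against input they were -0.029 for Alad with centring and, for Fech, -0.17 to 0.016 over single arrays left out. In IgG over input, Fech was 0.023 with quantile normalization, 0.0097 with centring and -0.22 to 0.10 over single arrays left out, and Alas1 -0.035 to 0.12. The cause was not tested.

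With the replicate block, counts called higher over IgG and input were 4 and 3 and no call changed (Cpox over IgG 1.33). Of 9 same-numbered pairs of arrays, 3 correlated over 0.1 in their deviations (range 0.0015 to 0.14), and the own number was the best match in 16 of 18 comparisons, a hint from the data that the numbers may be shared. The labels do not say what a number stands for, and the fit without the block was kept. The SE of Fech over IgG was 0.096 with the block and 0.17 without it.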
